A study of Mus musculus with 4 samples.

Results

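The SNHG-class genes studied here are 9 mouse non-coding genes that host small nucleolar RNAs: Snhg1, Snhg3, Snhg4, Snhg5, Snhg6, Snhg7, Snhg8, Snhg12 and Gas5. They were found as the rows of the deposited table whose gene symbol equals one of these names, 9 of 25630 rows, and all 9 passed the filter on low values. They were chosen with the difference between high and low density already known, so their values in that comparison are a description and carry no test. RNA came from BEKO, a line of mouse thymic lymphoma cells labelled WT in every sample, grown at low density (2 libraries, L1 and L2) or at high density (2 libraries, H1 and H2). All 4 libraries share the line and the genotype, no treatment is labelled, and the sources used here do not give cell number, medium or time in culture. Nothing in the labels ties the replicates to separate cultures, and the variation behind each p-value may therefore be purely technical.

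An SNHG gene is transcribed and spliced like a messenger RNA precursor, but the stable products are often the small nucleolar RNAs that lie in its introns. These guide the chemical modification and processing of ribosomal RNA: box C/D RNAs direct 2′-O-methylation, and box H/ACA RNAs direct pseudouridylation. The spliced exons have little coding potential, and several of these transcripts, Gas5 among them, are known to be removed by nonsense-mediated decay, which is coupled to translation. Many host genes start with a terminal oligopyrimidine (TOP) stretch, a C followed by further C or T bases, as ribosomal protein genes do. Gas5 was named for its accumulation in growth-arrested fibroblasts.

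The labelled lineage could be checked in the table. All 12 T lineage markers lay above 1 TPM (transcripts per 1000000, a level scaled for gene length) in every library, with a summed level of 6724 to 7901 TPM. Single T lineage markers differed between the groups: limma called 3 of the 12 higher and 1 lower at high density. Trac, the T cell receptor alpha constant gene, rose from 14.4 and 13.4 TPM to 84.8 and 115.6 TPM (limma adjusted p = 0.000326), and Trdc, the delta constant gene, rose 5.23-fold (limma adjusted p = 0.000911). Cd2, a T cell adhesion receptor, rose 3.08-fold (limma adjusted p = 0.00225). Rag1, a recombinase of receptor gene assembly, fell 2.97-fold (limma adjusted p = 0.00283). The part of these differences in the results on the host genes was not tested. Summed B lineage, erythroid and thymic epithelial markers did not pass 4.14 TPM in any library. The 5 stroma markers summed to 46.9 TPM in L1 and to at most 0.673 TPM in the other libraries, and the 6 myeloid markers to 6.62 to 16.1 TPM, of which Itgam, an integrin chain, made 6.62 to 16.1 TPM. The defining markers Cd79b, Ms4a1, Lyz2, Cd14, S100a8, Hba-a1, Hbb-b1 and Epcam were listed at 0 in all 4 libraries. Col1a1, a stroma marker, was 30.3 TPM in L1, and its part in the results below was not tested. Library H2 stood apart in scale, with a median log2(TPM + 1) of 5.34 over the rows tested against 4.94 to 5.05 in the other 3 libraries.

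The annotated starts of the host genes are shown because a TOP stretch is the feature this gene class is best known for. The RefSeq promoter table of build GRCm38.p6 holds 7 of the 9 members. Each line runs 5′ to 3′ on the gene's strand from 50 bases before the annotated start to 30 bases from the start onward, and capitals mark a C followed by at least 4 C or T bases that begins within 10 bases of the start. The files' processing notes name another build, so these coordinates are those of the RefSeq table alone.
Snhg1, chr19:8723437-8723516, plus strand: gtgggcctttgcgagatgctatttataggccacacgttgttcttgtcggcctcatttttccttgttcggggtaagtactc
Snhg3, chr4:132353657-132353736, minus strand: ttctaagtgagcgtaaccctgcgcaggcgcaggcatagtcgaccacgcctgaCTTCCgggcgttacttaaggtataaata
Snhg5, chr9:88522868-88522947, minus strand: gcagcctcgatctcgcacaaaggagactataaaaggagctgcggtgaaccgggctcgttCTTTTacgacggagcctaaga
Snhg7, chr2:26640215-26640294, minus strand: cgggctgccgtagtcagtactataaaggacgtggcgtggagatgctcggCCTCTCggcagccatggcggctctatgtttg
Snhg8, chr3:123508307-123508386, minus strand: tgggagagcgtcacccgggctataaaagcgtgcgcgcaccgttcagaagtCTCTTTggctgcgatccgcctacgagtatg
Snhg12, chr4:132308628-132308707, plus strand: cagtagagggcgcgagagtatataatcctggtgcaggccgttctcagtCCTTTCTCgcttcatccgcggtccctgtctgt
Gas5 (first annotated start), chr1:161034551-161034630, plus strand: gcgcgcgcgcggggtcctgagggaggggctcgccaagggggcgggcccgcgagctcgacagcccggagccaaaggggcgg
Gas5 (later annotated start), chr1:161035116-161035195, plus strand: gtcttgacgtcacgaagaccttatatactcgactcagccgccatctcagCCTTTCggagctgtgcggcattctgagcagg

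Such a stretch was found in 6 of the 7 members, against 34.4% of the 27025 genes in the promoter table. Snhg12 had the longest of those shown, 8 bases. The exception by this definition was Snhg1, in which no such run begins within the window. MYC-type E-boxes, CACGTG, were found in 0 of the 7 members in the 250 bases before to 50 bases after the start, and in 8.09% of all genes. ACGTG, a form of the core of the hypoxia response element, was searched for on either strand and not within CACGTG. It was found in Snhg1, Snhg5 and Snhg7, 3 of 7 members, against 15.3% of all genes. Other forms of that core were not searched for. These matches are letters in a window and say nothing of what binds there.

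The reference annotations place 30 genes of the type snoRNA inside the 9 members, from 1 each in Snhg4, Snhg6 and Snhg8 to 9 in Gas5. One of the 9 in Gas5 carries a microRNA name, Mir5117, although GENCODE gives its type as snoRNA. A row of their own in the deposited table was found for 11, in 7 hosts. RNAs of Snhg1 and Gas5 that GENCODE names Gm plus a number were looked up under that name or identifier alone. A row under another symbol would have been missed. The 5 shown next are the ones that were called lower at high density (values further on). They were read from the GENCODE vM21 transcripts on build GRCm38. Capitals mark the C box core TGATGA near the 5′ end and the D box CTGA near the 3′ end in box C/D RNAs. In box H/ACA RNAs they mark the H box ANANNA and the ACA near the 3′ end.
Snord22 in Snhg1, chr19:8725866-8725991, plus strand: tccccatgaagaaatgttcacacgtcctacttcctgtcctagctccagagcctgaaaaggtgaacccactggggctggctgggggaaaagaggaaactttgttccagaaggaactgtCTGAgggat
Snord87 in Snhg6, chr1:9942463-9942549, minus strand: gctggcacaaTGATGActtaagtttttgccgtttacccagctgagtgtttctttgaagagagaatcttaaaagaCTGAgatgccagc
Snord99 in Snhg12, chr4:132310691-132310764, plus strand: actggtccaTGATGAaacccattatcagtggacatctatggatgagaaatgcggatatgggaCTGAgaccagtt
Snora44 in Snhg12, chr4:132309941-132310069, plus strand: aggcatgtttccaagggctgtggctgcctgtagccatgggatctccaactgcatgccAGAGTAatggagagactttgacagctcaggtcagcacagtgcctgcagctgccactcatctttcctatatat
Snora61 in Snhg12, chr4:132310240-132310369, plus strand: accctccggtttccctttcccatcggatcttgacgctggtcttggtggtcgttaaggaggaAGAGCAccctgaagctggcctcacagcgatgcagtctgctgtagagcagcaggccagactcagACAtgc

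The search found no TGATGA in the first 20 bases of Snord22 and no ACA in the last 12 bases of Snora44. Snord87 lay wholly within no exon of the 5 Snhg6 transcripts that span it, and partial overlap was not checked. Snord22 lay within an exon in 3 of 12 spanning Snhg1 transcripts, and Snora44, Snora61 and Snord99 in 2, 4 and 3 of 9 spanning Snhg12 transcripts. Reads from such intron-retaining host transcripts can fall on a small nucleolar RNA row, and their counting was not stated.

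At high density the 9 host genes split 3 ways. Snhg1, Snhg5, Snhg6 and Snhg12 were above their low density values in both high density libraries, Snhg3 and Snhg4 were below them in both, and in Gas5, Snhg7 and Snhg8 the groups overlapped. Of all 10936 rows tested, 34.7% lay wholly above and 20% wholly below in this sense. Called by limma, with a Benjamini-Hochberg adjusted p under 0.05 over all rows tested, were 2 of 9 members lower (background 2.11%) and 0 of 9 higher (background 4.57%). At an unadjusted p under 0.05 limma placed 4 members higher and 2 lower, and 15.7% and 7.76% of all rows tested. Nothing is read from these counts, because the members were chosen on this contrast. Fits that leave out a library have 1 library in that group, which is assumed to vary like the other group, and the share of all rows called moved with them. Without L1 or L2 there was 1 member called higher, against 2.14% and 1.33% of all rows. Without H1 there were 4, against 23.1% of all rows, and without L2 there was 1 called lower, against 0.805%.

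**Figure D1:**
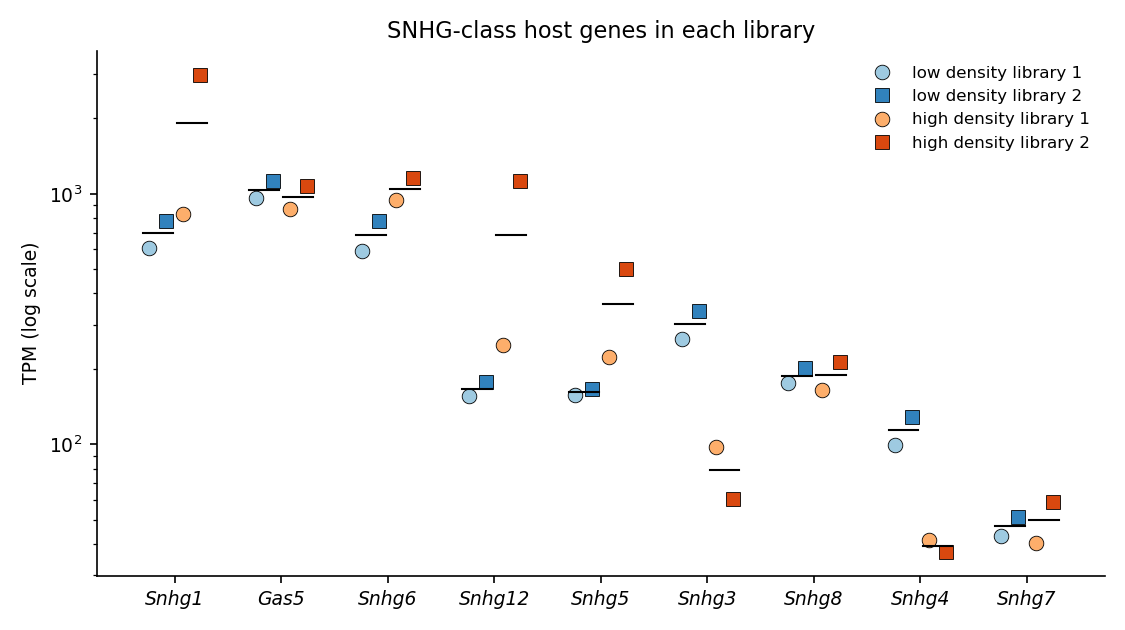
TPM of the 9 SNHG-class genes on a log axis, ordered by mean level, with 1 point per library and a bar at each group mean (n = 2). Snhg1, Snhg12 and Snhg5 have 1 high density library far above the other 3, while both high density libraries of Snhg3 and Snhg4 lie below both low density ones.

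Snhg12, host of 4 small nucleolar RNAs, had 155 and 177 TPM in the low density libraries and 249 and 1125 TPM in the high density libraries. Both high density values were above, but H2 was 4.51 times H1. The group means were 166 ± 15.0 and 687 ± 619 TPM (SD, n = 2), a ratio of 4.14, which was 1.5 without H2 and 6.78 without H1.

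Snhg1, host of 8, had 609.8 and 779 TPM in L1 and L2, then 827 and 2990 TPM in H1 and H2. Library H1 lay close to the low density pair, and H2 was 3.62 times H1. The ratio of the means, 694 ± 119 and 1908 ± 1530 TPM (SD, n = 2), was 2.75. It was 1.19 without H2 and 4.31 without H1.

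Snhg5, host of the U50 RNAs, had 158 and 166 TPM in L1 and L2, then 223 and 501 TPM in H1 and H2. Its low density values lay close together, and H2 was 2.25 times H1. The means were 162 ± 5.92 and 362 ± 197 TPM (SD, n = 2), a ratio of 2.23, or 1.37 without H2.

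Snhg6, host of Snord87, showed the smaller and more even difference. It had 593 and 779 TPM in L1 and L2, then 944 and 1151 TPM in H1 and H2. Library H2 was 1.22 times H1, and both were above both low density libraries. Means of 686 ± 132 and 1048 ± 146 TPM (SD, n = 2) gave a ratio of 1.53.

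Snhg3 and Snhg4 had the lower values at high density. Snhg3 carries Snora73a and Snora73b, the U17 RNAs, which act in cleavage of the ribosomal RNA precursor rather than as modification guides. It had 263 and 340.2 TPM in L1 and L2, then 97.1 and 60.7 TPM in H1 and H2. The means of 301 ± 54.8 and 78.9 ± 25.8 TPM (SD, n = 2) differed 3.82-fold. The fall was 3.10-fold against H1 alone and 4.97-fold against H2 alone.

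Snhg4, host of Snora74a (U19), had 99.3 and 129 TPM in L1 and L2, then 41.6 and 37.2 TPM in H1 and H2. Here the high density pair agreed closely. The means were 114 ± 21.0 and 39.4 ± 3.13 TPM (SD, n = 2), a 2.90-fold fall. Neither U17 RNA was matched to a row, so the fall of Snhg3 could not be set beside its products.

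Gas5 had 959 and 1120.2 TPM in L1 and L2, then 867 and 1074 TPM in H1 and H2, a ratio of means of 0.934. Snhg8, host of Snora24, had 175 and 201 TPM in L1 and L2, then 165 and 212 TPM in H1 and H2, a ratio of 1.00. Snhg7, host of Snora17 and Snora43, had 43.1 and 51.1 TPM in L1 and L2, then 40.2 and 59.1 TPM in H1 and H2, a ratio of 1.05. In all 3, H1 lay below both low density libraries and H2 above at least 1 of them, so no direction is given.

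By mean TPM over the 4 libraries the order was Snhg1 (1301), Gas5 (1005), Snhg6 (867), Snhg12 (427), Snhg5 (262), Snhg3 (190.2), Snhg8 (188), Snhg4 (76.8) and Snhg7 (48.4). Ranges over the 4 libraries overlapped between every pair of neighbours in this order other than Snhg8 and Snhg4. Snhg1 ranked 68 and Gas5 95 among all 25630 rows. Together the 9 genes made up 0.305% and 0.374% of TPM in the low density libraries, and 0.345% and 0.721% in H1 and H2. The share of Snhg1 in that sum was 19.96% and 20.8% at low density and 23.9% and 41.5% at high density. Without Snhg1 the sum was 2445 and 2963 TPM in L1 and L2, then 2627 and 4221 TPM in H1 and H2, so H2 was the highest with or without it. In a bulk library, fewer cells that express a gene and less of its RNA per cell cannot be told apart.

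The 2 high density libraries were far apart for some of these genes, a spread that counts here as part of the same contrast. Library H2 was at least 2-fold above H1 in 8.73% of rows tested, and at least 3-fold above in 1.8%. The row median of that ratio was 1.23. In 7 of the 9 members H2 was above H1, as in 70.9% of rows, and in all 9 L2 was above L1, as in 30% of rows. Snhg12, Snhg1 and Snhg5 were past 2-fold, and Snhg12 and Snhg1 past 3-fold. Of rows tested, 0.576% had a larger ratio than Snhg12 and 1.01% a larger one than Snhg1 (5.29% for Snhg5). In Snhg3, H2 was 0.625 times H1, while Gas5 (1.24) and Snhg6 (1.22) sat at the row median.

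**Figure D2:**
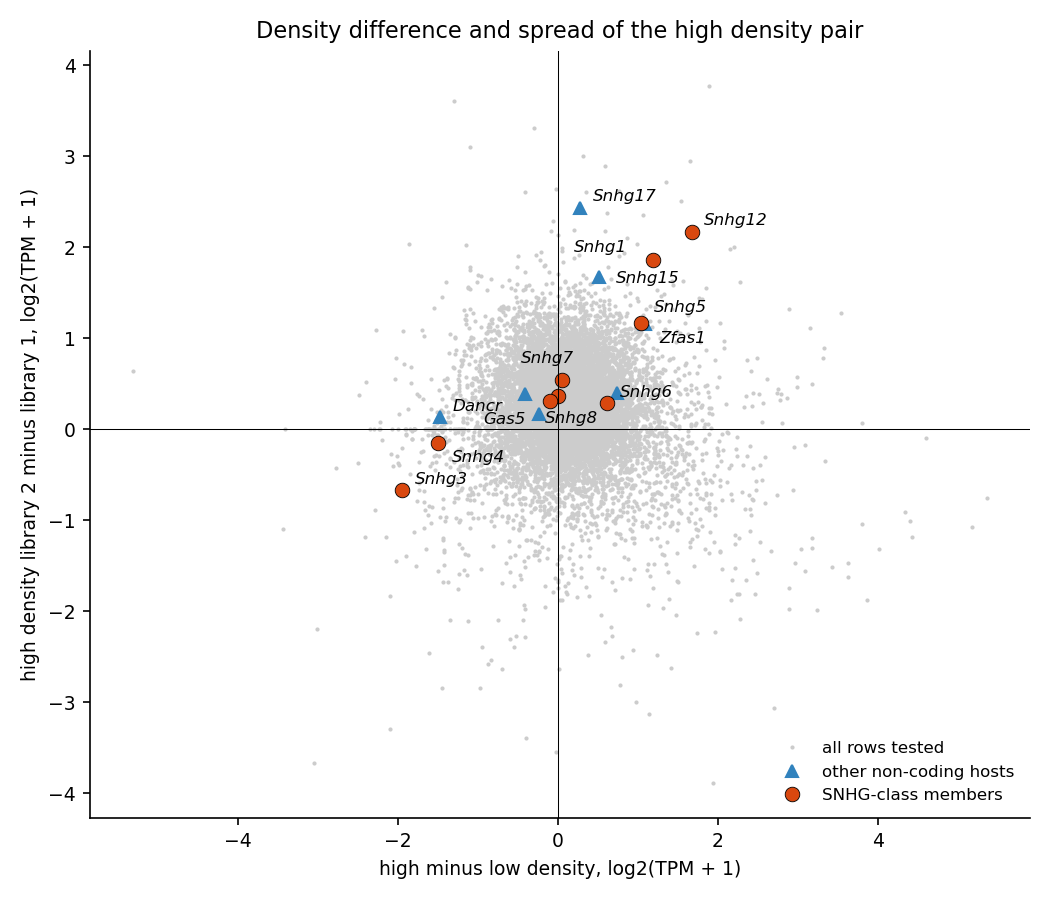
Each grey point is 1 of the 10936 rows tested, with the high minus low density difference on the x axis and the difference between the high density libraries on the y axis, both in log2(TPM + 1). Snhg12, Snhg1 and Snhg5 lie in the upper right, Snhg3 and Snhg4 at the left, and Gas5, Snhg7 and Snhg8 within the main cloud.

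A search for other rows named Snhg plus a number, and for Dancr, Zfas1 and Epb41l4aos, gave 11 further non-coding hosts. Hosts listed under other names were not searched for. The filter was passed by 7 of the 11. Among them limma called 1 lower, Dancr, and 0 higher (2 higher at an unadjusted p under 0.05), and the median log2 difference was 0.28 against 0.12 for all rows tested. Dancr, which carries an H/ACA RNA, fell from 29.6 and 36.6 TPM to 10.7 and 11.9 TPM (log2 difference −1.47 ± 0.28 SE, limma adjusted p = 0.0106). That call was lost without L1 (limma adjusted p = 0.176) or L2 (0.436).

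Zfas1, host of Snord12, had 383 and 458 TPM in L1 and L2, then 596 and 1328 TPM in H1 and H2. It did not pass (limma adjusted p = 0.0698). Snhg15 had 61.0 and 90.5 TPM in L1 and L2, then 59.1 and 191 TPM in H1 and H2, and Snhg17 had 38.4 and 40.4 TPM in L1 and L2, then 20.1 and 113 TPM in H1 and H2. In all 3 the higher value was in H2, and in Snhg15 and Snhg17 H1 lay below both low density libraries. Epb41l4aos was above in both high density libraries (232 and 305 TPM against 147 and 172), and did not pass (limma adjusted p = 0.0891). Snhg10 had 23.2 and 21.9 TPM in L1 and L2, then 14.5 and 19.3 TPM in H1 and H2. Snhg20 had 88.4 and 96.9 TPM in L1 and L2, then 74.1 and 83.5 TPM in H1 and H2. Both were below in both high density libraries and did not pass (limma adjusted p = 0.423 and 0.6).

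Profiles over the 4 libraries were compared by the Euclidean distance of centred log2 values. The nearest member to Snhg12 was Snhg1, to Snhg1 Snhg5 (distance 0.545 in both cases), to Snhg3 Snhg4 (0.574), and to Gas5 Snhg8 (0.109). For every member other than Snhg12, some row outside the members was nearer than any member. Such rows were Bbs4 for Snhg1 (0.436), Snord12 for Snhg3 (0.27) and Bcs1l for Gas5 (0.0315). For Snhg12 the nearest outside row, Rnf166, lay farther away (0.593). Among 6931 candidate rows of at least 20 TPM, the 5 nearest to the mean profile of the 9 genes were Uqcc3, Rpl12, Rbmx2, Alg5 and Nmi, at distances of 0.0636 to 0.0856. That mean averages opposite patterns. For all 5 rows the groups overlapped. Rpl12, a ribosomal protein gene, had 240.4 and 310.1 TPM in L1 and L2, then 231 and 369 TPM in H1 and H2. Over 4 libraries, likeness of this kind is a description.

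Among the small nucleolar RNAs inside the host genes, 5 were called lower at high density, all in Snhg1, Snhg6 or Snhg12, hosts with higher values there. Snhg12 alone held 4 of the rows tested, and none was matched for Snhg3 or Snhg5. The rows in Snhg4, Snhg7 and Gas5, hosts without higher values, also had negative differences and were not called. Of the 11 rows, Snora24 was listed at 0 in every library and the other 10 were tested. All 10 had a negative log2 difference, limma called 5 lower and 0 higher (0 higher and 9 lower at an unadjusted p under 0.05), and in 9 both high density libraries lay below both low density ones. Of all 10936 rows tested, 4409 had a negative difference, 2.11% were called lower and 4.57% higher, and 20% lay wholly below. At an unadjusted p under 0.05, 7.76% were lower and 15.7% higher. The same shares stand beside the counts of the other lists. The median difference was −1.37, against 0.12 for all rows. The 5 called rows were Snora44, Snord22, Snord87, Snord99 and Snora61, whose sequences are shown above. Of 78 tested small nucleolar RNA rows that were not assigned to a member, limma called 23 lower (29.5%) and 2 higher, and 53 were not called. Their median was −0.88, 64 had a negative difference, and 51 lay wholly below.

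Inside Snhg12, Snora44 had 21.5 and 26.6 TPM in L1 and L2, then 4.69 and 4.23 TPM in H1 and H2 (log2 difference −2.19 ± 0.30 SE, limma adjusted p = 0.00201). Snord99 had 57.6 and 91.6 TPM in L1 and L2, then 30.8 and 16.2 TPM in H1 and H2 (−1.66 ± 0.34, limma adjusted p = 0.0149). Snora61 went from 76.2 and 108 TPM to 41.7 and 35.9 TPM (−1.21 ± 0.27, limma adjusted p = 0.0201). Both high density libraries were below for each of these RNAs, in the same libraries in which their host Snhg12 was above. Snora16a, the fourth, had 39.4 and 48.9 TPM in L1 and L2, then 27.6 and 29.7 TPM in H1 and H2 and did not pass (limma adjusted p = 0.193).

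Snord22, the U22 RNA, lies in Snhg1. It had 101 and 112 TPM in L1 and L2, then 35.4 and 37.9 TPM in H1 and H2 (−1.52 ± 0.24 SE, limma adjusted p = 0.00411). Snord87, in Snhg6, had 25.5 and 16.6 TPM in L1 and L2, then 6.35 and 2.23 TPM in H1 and H2 (−2.15 ± 0.41, limma adjusted p = 0.0106). Both fell while their hosts were higher in the same libraries. Snord47 in Gas5 had 27.9 and 28.9 TPM in L1 and L2, then 16.9 and 5.07 TPM in H1 and H2 and did not pass (limma adjusted p = 0.0588).

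In Snhg7, Snora17 had 20.3 and 30.7 TPM in L1 and L2, then 14.2 and 8.74 TPM in H1 and H2 (limma adjusted p = 0.0707), and Snora43 overlapped between the groups. Snora74a in Snhg4 had 2.78 and 4.02 TPM at low density, 2.37 TPM in H1 and a listed 0 in H2. Another small RNA within Snhg4, the miRNA row Mir1949, fell from 25.9 and 51.6 TPM to 8.95 and 1.18 TPM (−3.01 ± 0.58 SE, limma adjusted p = 0.0109). It was picked after its values were seen.

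**Figure D3:**
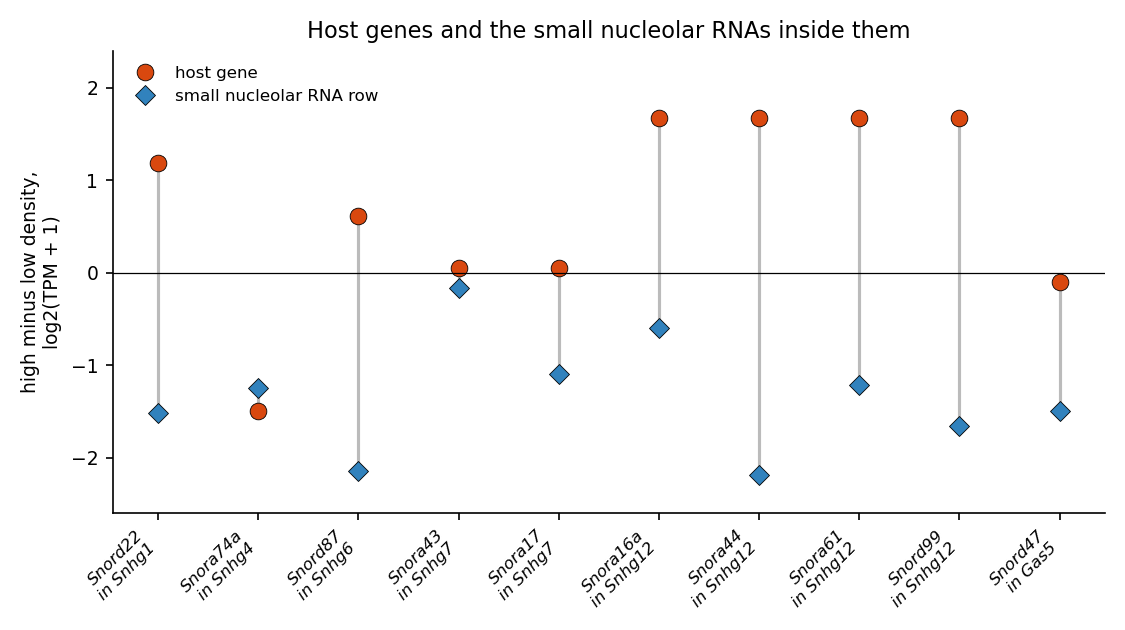
High minus low density difference in log2(TPM + 1) for the 10 tested small nucleolar RNA rows (diamonds) and for the host gene that holds each (circles), joined by a line. For Snhg1, Snhg6 and Snhg12 the host lies above 0 and its RNAs below. In Snhg4 and Gas5 both host and RNA lie below, Gas5 itself by little (−0.10). Snhg7 lies just above 0 (0.05) and its RNAs below.

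Set against its host within a library, Snora61 was at 49.1% and 61.4% of the Snhg12 TPM at low density and at 16.7% and 3.19% at high density. For Snord99 these values were 37.1% and 51.9% in L1 and L2, then 12.3% and 1.44% in H1 and H2, and for Snora44 13.9% and 15.0% against 1.88% and 0.376%. Snord22 went from 16.6% and 14.4% of the Snhg1 TPM to 4.29% and 1.27%. In 8 of the 10 pairs, in 5 of 6 hosts, both high density libraries had the lower value, and 4 of those pairs are in Snhg12. No such share was computed for other pairs of RNA and host. Of the 78 tested small nucleolar RNA rows not assigned to a member, 64 had a negative difference. In the 8 pairs inside members the log2 difference of RNA to host changed by −1.15 to −3.87 between the groups. The 2 exceptions were Snora43 in Snhg7 and Snora74a in Snhg4. Because the hosts were chosen on the same contrast, these ratios are a description, and a TPM ratio between rows of such unequal length shows a shift between libraries but not the number of molecules.

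Leaving out a library changed these calls. There were 3 without L1, 1 without L2, 8 without H1 and 6 without H2. In each such fit the spread within the groups comes from the other pair of libraries alone, so these counts are no measure of stability. Without L2 Snord87 was the row called, and limma adjusted p was 0.0524 for Snora44, 0.14 for Snord22, 0.34 for Snord99 and 0.615 for Snora61. The log2 differences of the latter 4 were then −2.05, −1.44, −1.33 and −0.96. Without L1, limma adjusted p was 0.0853 for Snord87 and 0.0825 for Snora61. With median centring or quantile normalisation Snord22 and Snora44 were called, and Snord87, Snord99 and Snora61 had a limma adjusted p of 0.0612 to 0.0859.

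Zfas1 and its RNA were chosen as an example after their values were seen. Snord12, which lies in it, fell from 76.3 and 116 TPM to 26.1 and 19.97 TPM (limma adjusted p = 0.00241), while Zfas1 itself was above its low density values in both high density libraries. By profile, Snord12 was the row nearest to Snhg3.

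Protein-coding genes that host small nucleolar RNAs, ribosomal protein genes left out, included 5 calls, all lower. Of 17 tested, limma called 5 lower and 0 higher (9 lower and 0 higher at an unadjusted p under 0.05), with a median log2 difference of −0.51. Ppan, a ribosome assembly factor, fell from 147 and 174 TPM to 49.9 and 74.01 TPM (limma adjusted p = 0.0106). Hspa8, the constitutive HSP70 chaperone, fell from 1973 and 1489 TPM to 747 and 282 TPM (limma adjusted p = 0.0123). Dkc1, the pseudouridine synthase of H/ACA particles, Gnl3, the nucleolar protein nucleostemin, and the RNA helicase gene Eif4a1 were the other calls. The count was 2 and 1 without L1 and L2, and 12 without H2. Nop58 and Nop56 overlapped between the groups. Nop58 had 513 and 534 TPM in L1 and L2, then 226 and 598 TPM in H1 and H2, so it too was lowest in H1 and highest in H2.

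Of 20 proteins of the small nucleolar particles and their assembly, limma called 5 lower and 0 higher (10 lower and 0 higher at an unadjusted p under 0.05), and 19 had a negative difference (median −0.62). Rrp9, which binds the U3 RNA, fell from 134 and 150.2 TPM to 45.8 and 57.8 TPM (limma adjusted p = 0.00587). Nhp2, a core H/ACA protein, fell from 299.8 and 397 TPM to 147 and 156 TPM (limma adjusted p = 0.0133). Dkc1, Nolc1 and Snu13 were the others, and Dkc1, Nop56 and Nop58 are in both lists. Fbl, the methyltransferase of box C/D particles, had 295 and 275 TPM in L1 and L2, then 149.7 and 198 TPM in H1 and H2 and did not pass (limma adjusted p = 0.0915). The count was 0 without L2, 2 without L1 and 14 without H2.

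Factors of nonsense-mediated decay, the pathway known to remove several SNHG transcripts, had 1 call. Of 20, limma called 1 lower, Magoh of the exon junction complex (312 and 352 TPM against 162 and 192, limma adjusted p = 0.0377), and 0 higher (2 higher at an unadjusted p under 0.05). The median was 0.14, close to that of all rows. Magoh lost its call without L1 (limma adjusted p = 0.235) or L2 (0.593), and 5 were called lower without H2. Upf1, the central helicase, had 171 and 144 TPM in L1 and L2, then 124 and 122 TPM in H1 and H2 (limma adjusted p = 0.39). Smg1, the kinase of Upf1, had 79.5 and 58.4 TPM in L1 and L2, then 93.3 and 117 TPM in H1 and H2 (limma adjusted p = 0.183).

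Of 15 mRNAs with a TOP start outside the ribosomal proteins, limma called 0 in either direction (0 higher and 2 lower at an unadjusted p under 0.05), with a median of −0.031. Tpt1, a textbook TOP mRNA, had 457 and 569 TPM in L1 and L2, then 772 and 662 TPM in H1 and H2 (limma adjusted p = 0.23). Eef1a1, the translation elongation factor, had 17418 and 17321 TPM in L1 and L2, then 18553 and 11941 TPM in H1 and H2. Its lowest value was in H2, where Snhg1, Snhg5 and Snhg12 had their highest. Of 9 tested regulators of TOP RNAs and growth, Eif4ebp1, a repressor of cap-dependent translation, was called higher (207 and 180.3 TPM against 382 and 345, limma adjusted p = 0.036), a call lost without L1 (0.218) or L2 (0.599). Larp1, which binds TOP mRNAs, had 175 and 153 TPM in L1 and L2, then 145 and 168 TPM in H1 and H2. Myc had 251 and 212 TPM in L1 and L2, then 141 and 315 TPM in H1 and H2, so it was also lowest in H1 and highest in H2.

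**Figure D4:**
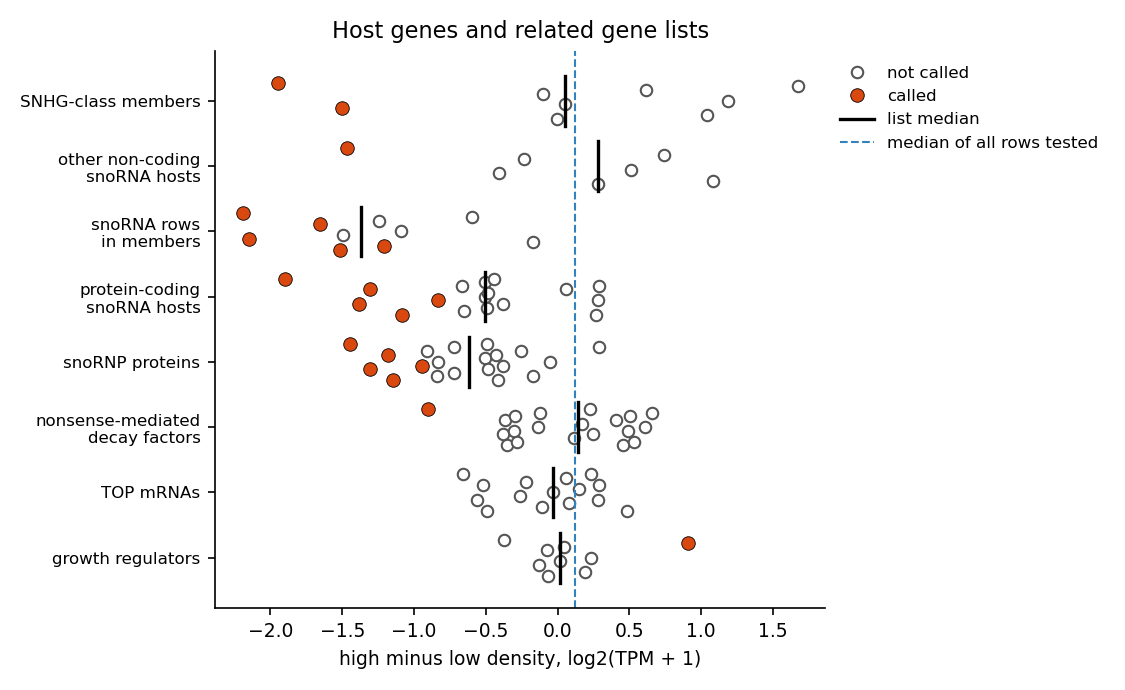
High minus low density difference in log2(TPM + 1) of every tested row of the 9 SNHG-class genes and of 7 related lists, filled where limma called the row, with the median of each list (bar) and of all rows tested (dashed). The small nucleolar RNA rows inside the members have a median of −1.37 and the 9 host genes one of 0.05.

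Genes that adjoin or overlap a host were also read, chosen after their values were seen. Slc3a2, a gene for a chain of amino acid transporters that is transcribed away from the start of Snhg1, had 278 and 219 TPM in L1 and L2, then 299.6 and 529.9 TPM in H1 and H2. It was above in both high density libraries and highest in H2, as Snhg1 was, and did not pass (limma adjusted p = 0.172). Rcc1, whose annotated span overlaps that of Snhg3 on the same strand, had 232 and 229 TPM in L1 and L2, then 126 and 199 TPM in H1 and H2 (limma adjusted p = 0.239). Its value in H2 was above that in H1, the reverse of Snhg3. Zbtb37, opposite Gas5, was weakly expressed at 5.43 and 5.25 TPM in L1 and L2, then 6.94 and 10.3 TPM in H1 and H2 (limma adjusted p = 0.323). Where annotated spans overlap, as for Snhg3 and Rcc1, reads may be shared between rows, and the labels do not say how they were assigned.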

How the data were processed

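Strand-specific libraries were made by a commercial provider, per the labels' protocols. The authors deposited a table of TPM values in which each column sums to 1000000. The submitters' processing notes name build mm9 and DESeq2 1.2.10 with no role; aligner, counter and gene lengths were not given in the sources used here. TPM keeps no depth, so the reads behind a value are unknown and no counting interval is given. TPM is relative to all RNA in a library.

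Columns were tied to samples by the column names in the descriptions. High was compared with low density by limma 3.58.1 (R 4.3.3, moderated variances with a mean-variance trend, two-sided, Benjamini-Hochberg over all rows tested) on log2(TPM + 1), which understates changes of low rows. The test took rows whose mean reached 1 TPM (10936 of 25630). The model has 2 residual and 9.53 prior degrees of freedom. With 2 libraries against 2, an exact permutation test cannot go below p = 0.333 and none is given. Ratios divide mean TPM.

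Members, lists and tests were chosen with earlier results of these data known. Named are all 9 members, tested RNAs inside them, called rows of each list, the nearest profiles, and genes marked as picked after their values were seen or used to illustrate a list. Small nucleolar RNAs were assigned to hosts by position within the host in GENCODE vM21 (same strand) or in the RefSeq gene table. In simulated libraries of 10936 rows limma called 75.5% of 2-fold changes, with 3.78% of calls false. Changes were placed only in rows well above the filter, so that share does not cover low rows. Noise was drawn alike in both groups. Alternatives were pseudocount, filter, scaling, rows in the total, variance trend, each library left out, and a replicate block.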

Additional observations from a re-analysis of the deposited data

How the results depend on the processing

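The members' differences kept 1 sign under the main and 14 alternative settings for Snhg1, Snhg5, Snhg6, Snhg12 (higher) and Snhg3, Snhg4 (lower). They changed sign for Snhg7, Snhg8 and Gas5. In the genes that kept their sign the groups did not overlap, so neither a left-out library nor the pseudocount could reverse it. Filter, variance trend and replicate block do not alter the difference itself. Only scaling and the rows in the total could have changed these signs. With each library left out in turn (the lone library of a group is then assumed to vary like the other group), rows called higher over the table ranged from 145 to 2525 and lower from 86 to 1193. Members called higher then ranged from 0 to 4 and lower from 1 to 2. Calls lower ranged from 1 to 8 for RNAs inside members, 0 to 2 for other non-coding hosts, 1 to 12 for coding hosts, 0 to 14 for particle proteins and 0 to 5 for decay factors, and calls higher from 0 to 1 for regulators. The difference of Snora43 ranged from −0.62 to 0.28 and was positive without L2 (0.28) or H2 (0.27). With no filter limma made 0 calls in the table and in every list, with 2565 rows at an unadjusted p under 0.05. Median centring, which moves the median of all rows from 0.12 to −0.063, left 160 rows higher, 1 member lower, 2 RNAs inside members, 2 coding hosts, 0 decay factors and 0 regulators. Quantile normalisation left 216 rows higher and 144 lower, 2 RNAs inside members, 2 coding hosts and 0 decay factors. With no variance trend there were 144 rows lower, 3 coding hosts, 3 particle proteins, 0 decay factors and 0 regulators. Leaving out ribosomal protein rows gave 3 coding hosts, and a minimum mean of 5 TPM gave 2 members higher. With the replicate number as a block 3 members were called higher, and 600 rows higher and 337 lower against 500 and 231. Same-numbered libraries had a correlation of deviations from their group means of 0.0416 over the rows tested. With 2 libraries per group this is a single value, and it cannot decide whether same-numbered libraries were paired. The cause of these changes was not tested. TPM gives no depth, so what depth limits is unknown.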
